A study of Mus musculus with 4 samples.

Results

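The genes described here build, cross-link or cut the extracellular matrix. They are 50 genes given by symbol: 31 matrix proteins (glycoproteins, proteoglycans, basement membrane components and collagens), the cross-linking oxidases Lox and Loxl3, 13 proteases, the urokinase receptor Plaur and 3 tissue inhibitors of metalloproteinases. All 50 were found on the array through the RefSeq accessions of its probes, among 19755 genes with a symbol and 32496 probe targets in all. RNA was measured on 4 one-colour arrays of bone marrow-derived dendritic cells (BMDC), 2 per genotype. The cells came from C57BL/6 mice labelled female and 8 weeks old, grew for 6 days in 20 ng/mL GM-CSF and were isolated as CD11c+. Both genotypes carried loxP-flanked alleles of Rbpj (Rbpj fl/fl). The control (RFF) is labelled with these alleles alone, and the Rbpj-deficient cells (RFF11) also carried CD11c-cre, a recombinase driven by the promoter of Itgax. The question is which genes depend on Rbpj in these cells, but loss of Rbpj and presence of the cre cannot be told apart, as no array holds cre with intact Rbpj. RNA was pooled from 4 mice per genotype. Whether the 2 arrays of a genotype hold separate pools is not stated in the labels. The p-values therefore rest on the variation from array to array, possibly technical alone.

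Matrix proteins form the scaffold outside cells and signal back through integrins and syndecans. Metalloproteinases (Mmp), the related Adamts enzymes and the urokinase-plasmin system cut that scaffold, and the Timp proteins block metalloproteinases by binding their active site. Dendritic cells and macrophages make some adhesive glycoproteins and proteases, which migrating cells use, while fibrillar collagens are chiefly products of fibroblasts. RBPJ carries the Notch signal to DNA, where it binds sites with the core TGGGAA.

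Rbpj itself read 2.69 and 2.60 in control cells, against 1.36 and 1.43 in Rbpj-deficient cells. Levels throughout are log2 signal minus the 75th percentile of the array, and changes are read between arrays for 1 gene. Where genes are summed or called dim or bright, that describes probe signal and not RNA amount, as probes differ between genes. Rbpj thus stood at 42.1% of control, a log2 change of -1.25 (SE 0.07) with an adjusted p of 0.0282 in limma. Whether its probe lies in the deleted part is not known here. Itgax read 6.69 and 6.62 in control and 6.65 and 6.45 in Rbpj-deficient cells (log2 change -0.11, adjusted p = 0.521). Of 43020 gene spots per array, 55.2% to 58.4% were well above background, a flag set by the scanner software. Levels correlated across genes at 0.997 and 0.998 within the genotypes. Of 10 dendritic cell markers 9 were found on the array and measured on all 4 arrays, and none passed the test. Of those 9, 5 had an unadjusted p under 0.05 in limma, beside 24.1% of all genes. Changes ran from -1.33 (Cd209a, adjusted p = 0.158) to 0.41 (Ciita, adjusted p = 0.0904). Their summed level was 9.55 to 9.61 on the control and 9.39 to 9.48 on the Rbpj-deficient arrays, and their part in the results was not tested. A summed level adds the signals of a list, so its brightest probes weigh most. All arrays lay on 1 slide, so genotype and slide position cannot be told apart.

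Promoter windows show what sequence stands upstream of some members, picked from those whose genotypes were separate. RefSeq windows (GRCm38.p6) of 250 bases before the start were matched by symbol for 34 of the 50 members, Fn1 and Ccdc80 not among them. The RBPJ core TGGGAA was searched on both strands. Shown are the 3 metalloproteinase inhibitors and Ecm1, all lower on both Rbpj-deficient arrays, and Frem3, measured in Rbpj-deficient cells alone. Each is written 5′ to 3′ on the strand of its gene, with matches in capitals, so that TTCCCA is a match on the opposite strand.
Timp1 (chrX:20869916-20870165, plus strand): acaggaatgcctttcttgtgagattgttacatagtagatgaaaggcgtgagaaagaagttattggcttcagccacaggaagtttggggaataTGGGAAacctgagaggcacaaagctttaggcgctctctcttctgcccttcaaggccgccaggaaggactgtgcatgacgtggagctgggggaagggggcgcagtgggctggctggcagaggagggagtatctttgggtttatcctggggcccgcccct
Timp2 (chr11:118355412-118355661, minus strand): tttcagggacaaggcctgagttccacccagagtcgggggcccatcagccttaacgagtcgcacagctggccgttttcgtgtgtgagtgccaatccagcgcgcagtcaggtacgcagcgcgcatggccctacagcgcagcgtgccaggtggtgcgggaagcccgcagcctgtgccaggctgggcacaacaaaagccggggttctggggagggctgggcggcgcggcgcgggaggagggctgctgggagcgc
Timp3 (chr10:86300162-86300411, plus strand): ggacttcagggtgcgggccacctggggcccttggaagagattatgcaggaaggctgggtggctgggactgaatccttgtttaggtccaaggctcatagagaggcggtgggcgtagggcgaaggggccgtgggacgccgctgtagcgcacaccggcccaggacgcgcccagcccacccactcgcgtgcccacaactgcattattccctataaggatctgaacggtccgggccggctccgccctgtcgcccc
Ecm1 (chr3:95739570-95739819, minus strand): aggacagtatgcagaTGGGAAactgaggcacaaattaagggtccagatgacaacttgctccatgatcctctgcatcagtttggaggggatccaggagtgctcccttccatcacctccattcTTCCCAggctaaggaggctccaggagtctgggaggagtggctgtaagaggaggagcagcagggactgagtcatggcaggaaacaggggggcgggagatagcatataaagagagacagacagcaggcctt
Frem3 (chr8:80610789-80611038, plus strand): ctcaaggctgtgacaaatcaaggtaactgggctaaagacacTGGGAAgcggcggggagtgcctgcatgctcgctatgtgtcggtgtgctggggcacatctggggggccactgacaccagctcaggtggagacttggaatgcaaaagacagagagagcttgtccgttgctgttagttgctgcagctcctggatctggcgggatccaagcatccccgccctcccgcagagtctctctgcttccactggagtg
Timp1 holds 1 match that begins 158 bases before the start, Ecm1 holds 2, at 235 bases on the strand of the gene and at 129 on the other, and Frem3 holds 1 at 209. Timp2 and Timp3 hold none in this window. Among the members with separate genotypes and a window that is not shown, Vcan held the core. Lamb2, Col5a1, Mmp12, Mmp13, Mmp14, Mmp25 and Plaur held none. Over all members with a window, 10 of 34 genes held the core, beside 24.1% of the 27025 genes in the table. The longer form GTGGGAA, which contains the core, was found in 4 of the 40 member windows (those of Fbn1, Tnc, Hspg2 and Vcan) and in 5.42% of all 32851 windows. A match is a description of the letters and not a measured site.

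Of the 50 members 30 entered the test, which needs a probe above background on every array of 1 genotype or the other, and 27 were measured on all 4 arrays. Of all probe targets 55.3% entered. Among them 2 matrix glycoproteins fell in Rbpj-deficient cells, fibronectin (Fn1) and Ccdc80, no member rose, and 28 did not pass at an adjusted p of 0.05 in limma over 17973 genes. Over all genes 1.9% passed, 0.851% lower and 1.05% higher. Fn1 and Ccdc80 were also the members with a log2 change of -1 or lower, as had 0.634% of all genes (1.61% changed 2-fold or more either way). Of the 30 tested members 24 lay below 0 (52.8% of all genes did), with a median log2 change of -0.33 against -0.01 over all genes. At an unadjusted p under 0.05 in limma stood 18 of 30, beside 24.1% of all genes. Frem3 and Col5a1 are among the 18 and, like Dcn, entered through 1 genotype alone, so their separation rests in part on that filter. Of the 27 members measured on all 4 arrays 16 had such a p. The members were chosen with earlier results of these data known, so these shares are no test of the list. Genotypes did not overlap for 20 of 30 members, a share near the 59.1% over all genes, and 16 of them were lower (32.3% of all genes were). Among the 27 measured on all 4 arrays they did not overlap for 18, with 15 lower. The plot of levels by array shows the 30 tested genes. In bulk samples, fewer cells of a type and less RNA per cell cannot be told apart.

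**Figure D1:**
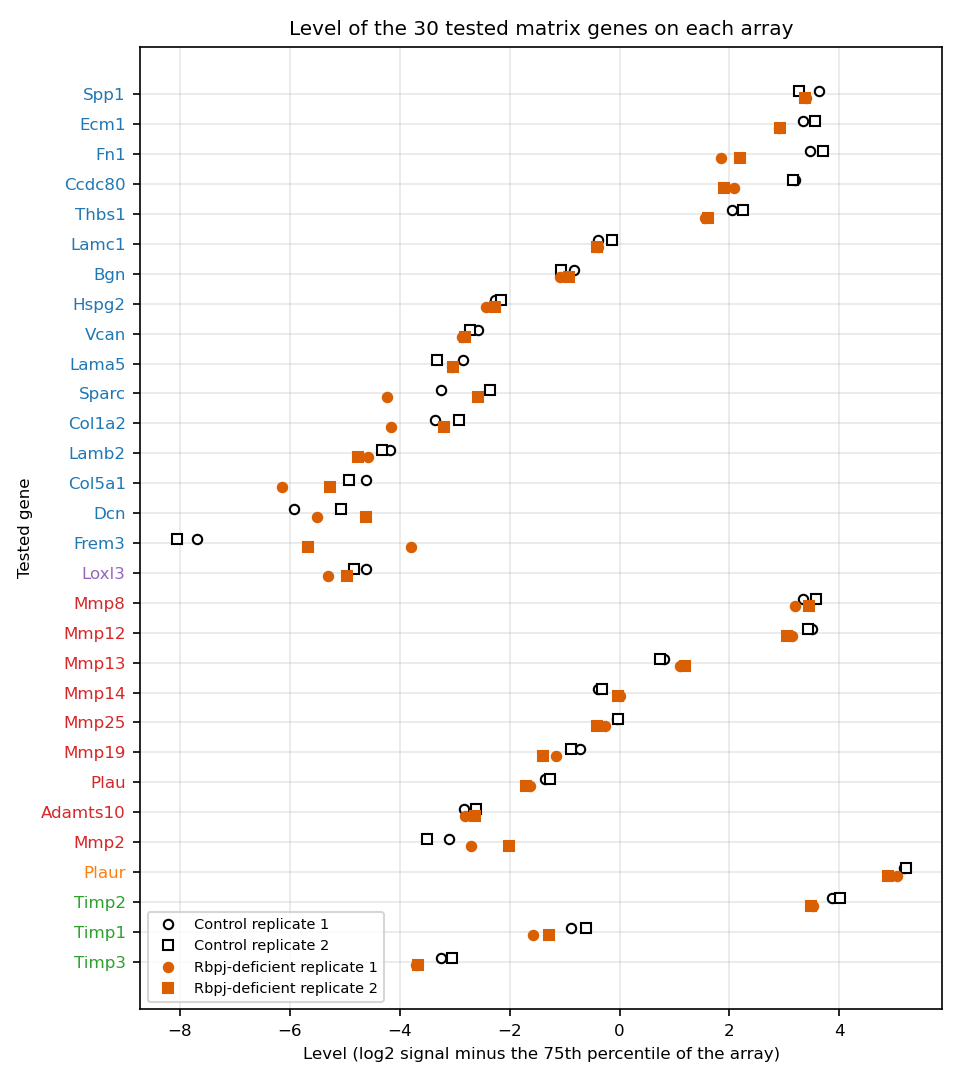
Level of each of the 30 tested members on the 4 arrays (x axis, log2 signal minus the array's 75th percentile), grouped by class (colour of the name: blue matrix protein, purple cross-linking oxidase, red protease, orange protease receptor, green inhibitor). Open symbols are control and filled symbols Rbpj-deficient arrays. Fn1 and Ccdc80 stand apart by genotype, while the arrays of Sparc spread from -4.24 to -2.36 and overlap.

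The adhesive and matricellular glycoproteins held both genes that passed. Fibronectin, the ligand of several integrins and a core of early matrix, read 3.46 and 3.71 in control, against 1.85 and 2.19 in Rbpj-deficient cells. Both Rbpj-deficient arrays were the lower ones, and the genotypes did not overlap. Its log2 change was -1.56 (SE 0.16) with an adjusted p of 0.0416 in limma, or 33.9% of control. Ccdc80, a secreted protein that binds matrix, read 3.19 and 3.16 in control and 2.08 and 1.90 in Rbpj-deficient cells. It changed by -1.18 (SE 0.08, adjusted p = 0.0323), to 44.0% of control, and a second probe of the same gene stood at -1.20. Neither gene passed without any 1 of the arrays, with changes of -1.73 to -1.39 for Fn1 and -1.27 to -1.10 for Ccdc80. Neither passed without the filter on dim genes (adjusted p = 0.259 for each) or without the shared variance prior (0.230 and 0.200). In those settings limma called 0 genes, with 3657 and 3136 at an unadjusted p under 0.05.

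Other members of this role did not pass. Thrombospondin 1 (Thbs1), which binds CD36 and CD47 and activates latent TGF-beta, read 2.05 and 2.24 in control and 1.56 and 1.60 in Rbpj-deficient cells (log2 change -0.56, SE 0.09, adjusted p = 0.0654). Ecm1 read 3.34 and 3.55 against 2.90 and 2.93 (log2 change -0.53, adjusted p = 0.0753), and its other probe stood at -0.62. In both genes the 2 genotypes were separate. Osteopontin (Spp1), a secreted ligand of integrins and CD44, read 3.63 and 3.26 against 3.39 and 3.38, so that the genotypes overlapped. Its log2 change was -0.06 with a 95% interval of -0.44 to 0.32. Sparc, a collagen-binding glycoprotein, read -3.26 and -2.36 against -4.24 and -2.58 (log2 change -0.60, SE 0.67, adjusted p = 0.621), and stood at 0.23 without Rbpj-deficient replicate 1. Thbs2 and tenascin C (Tnc) were not well above background on any array.

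Fibronectin is also made by monocytes and macrophages, so their markers stand here beside it. Of 14 such markers 12 were found on the array and 11 tested, of which the Fc receptor Fcgr1 fell (log2 change -0.61, adjusted p = 0.0416), none rose and 10 did not pass. Over all genes 0.851% passed as lower. The median change of these markers was -0.15. Their summed level was 8.68 to 8.78 on the control and 8.58 to 8.60 on the Rbpj-deficient arrays, and Cd163 was not well above background on any array. Their part in the change of Fn1 was not tested.

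**Figure D2:**
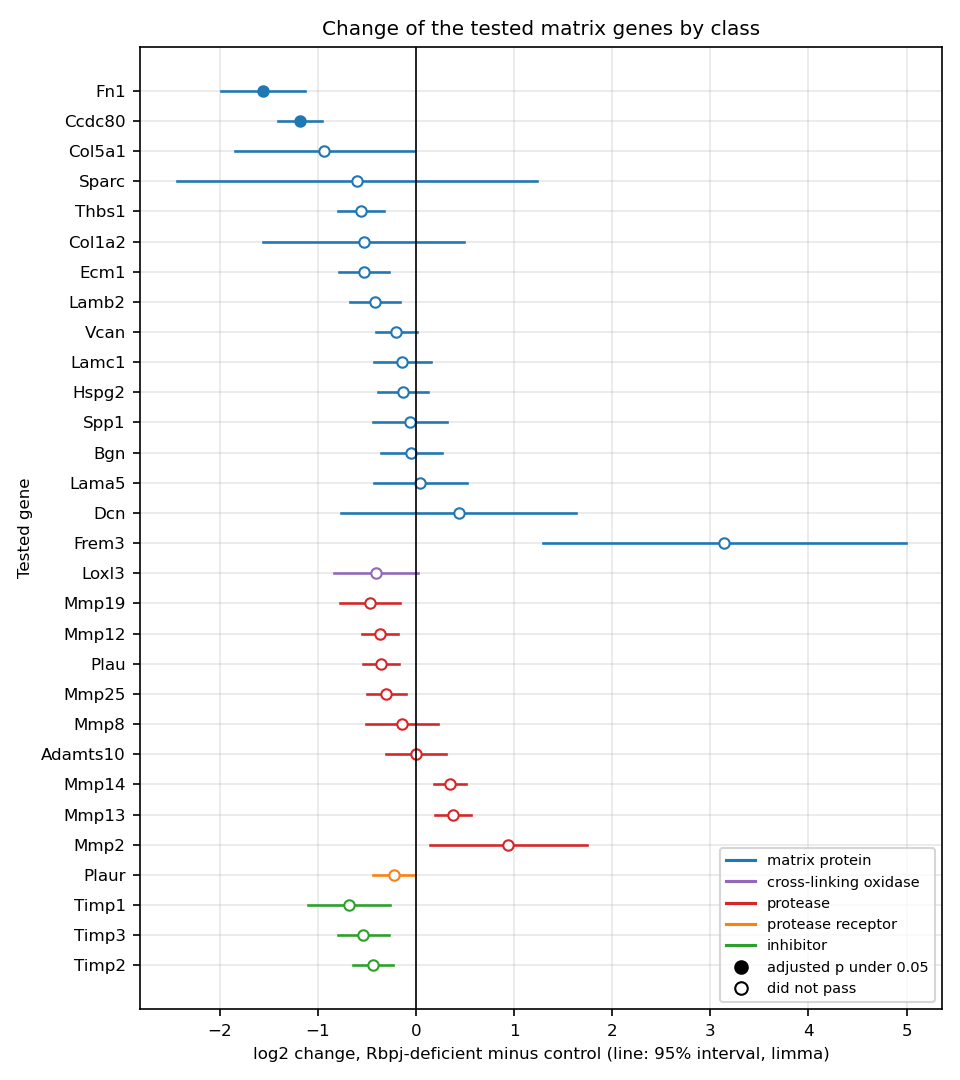
log2 change of each tested member (x axis, Rbpj-deficient minus control) with its 95% interval from limma, grouped by class and ordered by change. Filled points passed at an adjusted p of 0.05, which only Fn1 and Ccdc80 did. The value of Frem3, 3.14, rests on control arrays that were not well above background and is no measured fold.

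No proteoglycan passed the test. Biglycan (Bgn), a small leucine-rich proteoglycan, read -0.83 and -1.07 against -1.08 and -0.92 (log2 change -0.05). Decorin (Dcn), of the same family, was measured on 3 arrays and read -5.92 and -5.07 against -5.50 and -4.62 (0.43, SE 0.43, adjusted p = 0.583). Lumican (Lum) was not well above background on any array. Versican (Vcan), a large proteoglycan that binds hyaluronan, had probes that disagreed. The probe used read -2.57 and -2.72 against -2.87 and -2.82 (-0.20, adjusted p = 0.223). A probe for another RefSeq transcript of Vcan, also measured on all 4 arrays, had means of -2.67 in control and -3.69 in Rbpj-deficient cells (difference -1.02), and a difference of -0.67 with normexp on the median spot signal.

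Of 10 basement membrane genes 5 were tested and none passed. The laminin chains Lama5, Lamb2 and Lamc1, which assemble into the cross-shaped laminin trimers, stood at 0.04, -0.42 and -0.14. Lamb2 read -4.18 and -4.32 against -4.58 and -4.75 (adjusted p = 0.106). Lamc1 read -0.39 and -0.14 against -0.39 and -0.41. Perlecan (Hspg2) stood at -0.13. Frem3, of a family of large basement membrane proteins, read -7.69 and -8.06 in control and -3.80 and -5.66 in Rbpj-deficient cells. It was not well above background on either control array and entered the test through the Rbpj-deficient arrays alone. Against the smallest level well above background on each control array, the mean of the Rbpj-deficient arrays was at least 1.91-fold higher (adjusted p = 0.0986 in limma). That bound rests on 1 array, as it is 3.64-fold for Rbpj-deficient replicate 1 and 1.001-fold for replicate 2. With normexp the log2 change of Frem3 was 0.88, which is below the bound, and its other probe was not well above background on any array. Nid1 and Col4a2 were measured on Rbpj-deficient replicate 2 alone, Col18a1 on control replicate 2 alone, and Nid2 on replicate 2 of each genotype. Col4a1 was not measured on any array.

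Interstitial collagens were dim. Of 6 listed, Col1a2 was measured on all 4 arrays and Col5a1 on 3, Col1a1 on replicate 2 of each genotype, and Col3a1, Col6a1 and Col6a2 on none. Col1a2, a chain of type I collagen, read -3.36 and -2.92 against -4.15 and -3.20 (log2 change -0.53, SE 0.37, adjusted p = 0.436), and the genotypes overlapped. Col5a1, a chain of the collagen that seeds fibrils, read -4.62 and -4.93 against -6.15 and -5.27 (-0.94, adjusted p = 0.200). It entered the test through the control arrays alone. With normexp the change of Col5a1 was -0.25. None of the fibulins and fibrillin (Fbln1, Fbln2, Fbn1) entered the test. Of the oxidases that cross-link collagen and elastin, Loxl3 read -4.61 and -4.84 against -5.30 and -4.96 (-0.41, adjusted p = 0.220), and Lox was not well above background on any array.

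Several dim matrix genes were higher on replicate 2 of both genotypes. Sparc was higher on replicate 2 than on replicate 1 by 0.90 in control and 1.66 in Rbpj-deficient cells. Dcn was higher there by 0.85 and 0.88, Col1a2 by 0.44 and 0.95, Col1a1 by 0.52 and 0.79, and Fbln2 by 0.93 and 1.31. Col1a1 and Fbln2 were not well above background on replicate 1 of either genotype, nor was Dcn on control replicate 1. The sizes given for Col1a1 and Fbln2, and that of Dcn in control, are therefore not measured differences. Of the 30 tested members 3 exceeded 0.4 in both genotypes, as did 0.445% of all genes tested. Col1a1 and Fbln2, outside the test, exceeded it too. The SD of the difference between 2 arrays over all genes was 0.247 in control and 0.226 in Rbpj-deficient cells. It covers genes of every level and was not taken for dim genes alone. These genes were picked after their values were seen, which is why no test is given. Of 12 fibroblast and stromal markers 5 were tested and none passed, and their summed level was 1.26 to 1.33 on the control and 1.38 to 1.47 on the Rbpj-deficient arrays. The 5 tested, Thy1, Acta2, Tagln, Lepr and Runx2, were well above background on all 4 arrays, Postn was on 1, and Pdgfra, Pdgfrb, Cxcl12, Alpl, Twist1 and Prrx1 were on none. The part of such cells in the values of the matrix genes was not tested. Of 8 endothelial markers 4 were tested and none passed. Of those 4, 3 were well above background on all 4 arrays. Changes ran from -0.13 to 1.65 with a median of 0.25, 3 above 0 and 1 below. These include the marker not measured on every array. It read as low as -6.98 in control, under the smallest levels well above background there (-5.50 and -5.82), so its change is no measured fold. Summed levels were 2.22 to 2.34 and 2.15 to 2.20. They rest mainly on the brightest marker, which read up to 2.23 in control. Cdh5 and Tek were not well above background on any array.

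**Figure D3:**
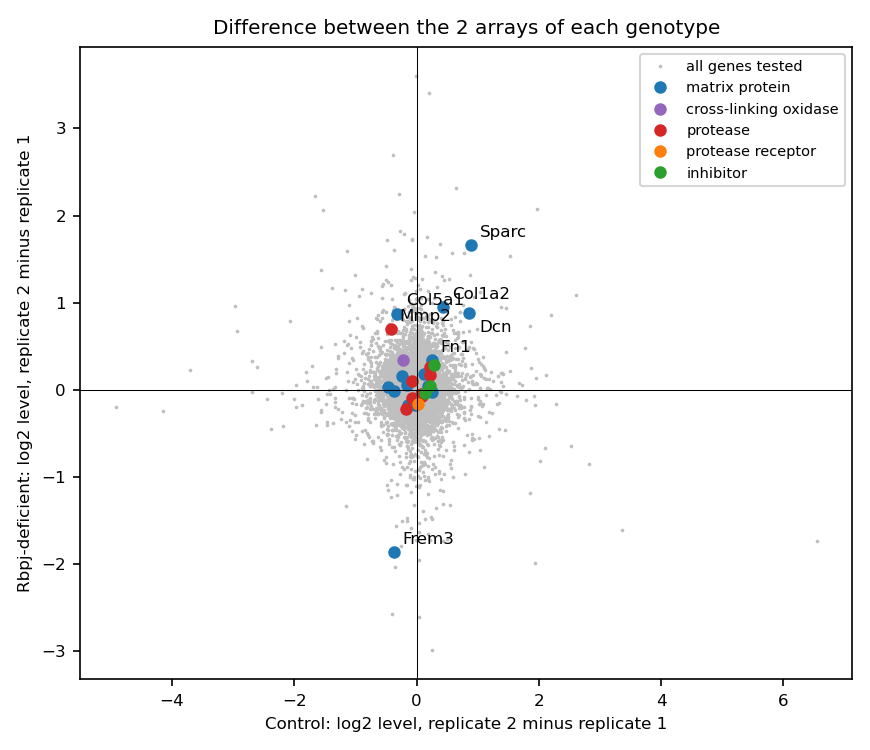
Difference between replicate 2 and replicate 1 in log2 level, in control (x axis) and in Rbpj-deficient cells (y axis), for all genes tested (grey) and the tested members (coloured by class). Sparc (0.90, 1.66), Dcn (0.85, 0.88) and Col1a2 (0.44, 0.95) lie to the upper right, higher on replicate 2 of both genotypes.

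Proteases pointed both ways, and none of the 9 tested passed in limma, with 7 at an unadjusted p under 0.05 (24.1% of all genes were). Mmp13, a collagenase, read 0.81 and 0.74 in control and 1.10 and 1.20 in Rbpj-deficient cells (log2 change 0.38, SE 0.07, adjusted p = 0.0786). Mmp14, a membrane-bound metalloproteinase that activates Mmp2, read -0.39 and -0.32 against 0.01 and -0.04 (log2 change 0.35, adjusted p = 0.0767). Mmp2, a gelatinase, read -3.10 and -3.51 against -2.71 and -2.01 (0.94, SE 0.29, adjusted p = 0.168). These were the tested proteases above 0, and in each the Rbpj-deficient arrays were the higher ones.

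The other proteases lay at or below 0. Mmp12, the macrophage elastase, read 3.50 and 3.43 against 3.14 and 3.05 (log2 change -0.37, SE 0.07, adjusted p = 0.0809), and its other probe stood at -0.35. Mmp19 read -0.72 and -0.89 against -1.17 and -1.39 (-0.47, adjusted p = 0.115). Urokinase (Plau), which converts plasminogen to plasmin, read -1.36 and -1.27 against -1.64 and -1.71 (-0.35, adjusted p = 0.0819). Its receptor Plaur read 5.18 and 5.21 against 5.05 and 4.89 (-0.23, adjusted p = 0.188). In these 4 genes the genotypes were separate, with the Rbpj-deficient arrays lower. Adamts10 read -2.83 and -2.62 against -2.81 and -2.64, a change of -0.00 with a 95% interval of -0.31 to 0.30. Mmp3, Mmp9, Adamts1 and Adamts4 were not well above background on any array.

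Mmp8 and Mmp25 are metalloproteinases of neutrophils. Mmp8, the neutrophil collagenase, read 3.34 and 3.57 against 3.19 and 3.45 (-0.14, adjusted p = 0.555), and the genotypes overlapped. Mmp25 read -0.05 and -0.04 against -0.27 and -0.41 (-0.30, adjusted p = 0.116). Of 14 neutrophil markers 13 were found on the array and 12 tested, of which Ngp (0.54, adjusted p = 0.0445) and Mpo (0.74, adjusted p = 0.0378) rose, none fell and 10 did not pass, with a median change of 0.59. Of the 12 tested, 11 lay above 0, and 10 had an unadjusted p under 0.05 in limma, all higher (11.2% of all genes were). The summed level of the neutrophil markers was 5.70 to 5.77 on the control and 6.16 to 6.31 on the Rbpj-deficient arrays. Of 9 mast cell and basophil markers 6 were tested, with Mcpt8 (1.13, adjusted p = 0.0496) and Hdc (0.48, adjusted p = 0.0475) higher and summed levels of 0.73 to 0.82 and 1.13 to 1.31. Over all genes 1.05% passed as higher. The part of neutrophils, mast cells and basophils in the values of Mmp8 and Mmp25 was not tested.

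All 3 inhibitors were measured on every array, lay lower on both Rbpj-deficient arrays and did not pass, each with an unadjusted p under 0.05, beside 24.1% of all genes. Timp1, which pairs with Mmp9, read -0.88 and -0.60 in control and -1.57 and -1.28 in Rbpj-deficient cells (log2 change -0.68, SE 0.15, adjusted p = 0.103). Timp2, which inhibits Mmp2 and also helps Mmp14 to activate it, read 3.86 and 4.01 against 3.52 and 3.48 (-0.44, SE 0.07, adjusted p = 0.0730). Its other probe stood at -0.39. Timp3, which binds to the matrix, read -3.26 and -3.04 against -3.71 and -3.66 (-0.54, SE 0.09, adjusted p = 0.0763). Of their 3 promoter windows, that of Timp1 holds the RBPJ core.

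Set side by side, the classes had median log2 changes of -0.31 for the 16 tested matrix proteins, -0.14 for the 9 tested proteases and -0.54 for the 3 inhibitors, against -0.01 over all genes. Genotypes were separate for 8 of the 16 matrix proteins (7 lower and 1 higher, Frem3), 7 of the 9 proteases (4 lower and 3 higher) and all 3 inhibitors (lower). Over all genes 59.1% were separate, 32.3% lower and 26.7% higher. Frem3 and Dcn entered the test through the Rbpj-deficient arrays alone and Col5a1 through the control arrays alone. The separation of Frem3 and Col5a1 thus rests in part on that filter. Over the 13 matrix proteins measured on all 4 arrays the median was -0.42. The 9 proteases and 3 inhibitors were all measured on all 4 arrays. Medians over so few genes moved with single arrays. The median of matrix proteins was -0.11 without Rbpj-deficient replicate 1. That of proteases was -0.012 without Rbpj-deficient replicate 1, -0.03 without control replicate 2, -0.26 without control replicate 1 and -0.23 without Rbpj-deficient replicate 2. No test of a difference between the classes was made, since genes on the same arrays are not replicates. The members were also chosen with earlier results of these data known.

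**Figure D4:**
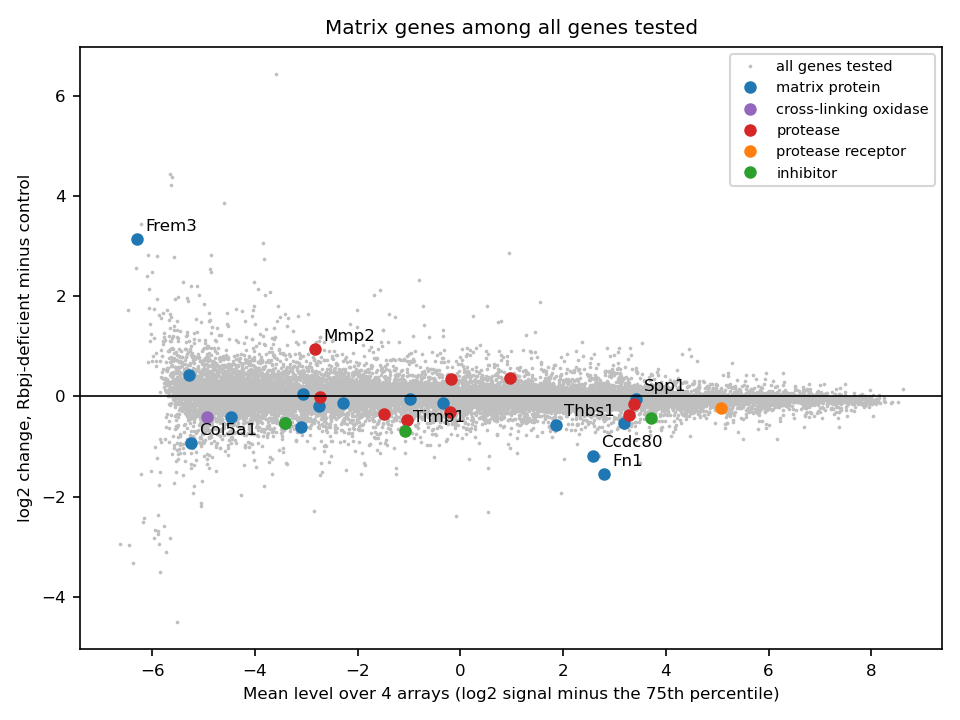
log2 change (y axis, Rbpj-deficient minus control) against mean level over the 4 arrays (x axis, log2 signal minus the 75th percentile) for all genes tested (grey) and tested members (coloured by class). Fn1 at -1.56 and Ccdc80 at -1.18 lie below the band of genes of similar level, and the grey points spread widely at low levels, where Frem3 and Col5a1 lie.

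Other genes of matrix biology were taken from wider lists. Over all genes 0.851% passed as lower and 1.05% as higher. Of 43 further matrix proteins 21 were tested, and the laminin chain Lama2 fell (log2 change -0.94, SE 0.06, adjusted p = 0.0323), from readings of -3.63 and -3.53 to -4.52 and -4.52. The change of Lama2 was -0.43 with normexp, and its adjusted p was 0.0501 with the mean of probes. None rose and 20 did not pass. Of 33 further proteases 16 were tested, and the metalloproteinase Mmp23 fell (-0.88, SE 0.06, adjusted p = 0.0323), from 0.13 and 0.19 to -0.75 and -0.69, none rose and 15 did not pass. None of 19 tested matrix receptors passed, nor of 11 collagen-processing genes, nor of 4 further protease inhibitors. The medians of these 5 lists ran from -0.22 to -0.01. Chosen after their values were seen, Sdc1, a heparan sulphate proteoglycan receptor for matrix, stood at -1.33 (adjusted p = 0.0576) and Tgm2, an enzyme that cross-links fibronectin, at 1.07 (adjusted p = 0.0639).

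The signal used as input changed the values of dim members and the number of calls. The normexp alternative differs from the main values in its background correction, in an offset of 50 and in starting from the median spot signal without detrending, and these were not tried apart. With it, limma called 888 of 17973 genes, or 4.94%. It called 8 members lower (Fn1, Ccdc80, Thbs1, Ecm1, Mmp12, Plau, Timp2 and Timp3) and 1 higher (Mmp14). With a variance prior that follows the signal level and is robust to outlying genes, limma called 1553 genes, or 8.64%, with 9 members lower and 2 higher. Those 9 held Timp1 and Mmp19 and not Timp3, and the 2 were Mmp13 and Mmp14. The changes of Fn1 and Ccdc80 with normexp, -1.55 and -1.22, were close to those on the processed signal. Both genes also passed with quantile normalisation, median scaling, the filter on all 4 arrays and the mean of probes, where 1.76%, 2.36%, 2.77% and 1.7% of genes passed, and with the authors' table (1.94%). Without control replicate 1 or 2, limma called 1 gene (0.00556%), which was higher, and without either Rbpj-deficient array 0. Every gene named here as lower, Rbpj, Lama2, Mmp23 and Fcgr1 among them, therefore missed the threshold without any 1 array.

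**Figure D5:**
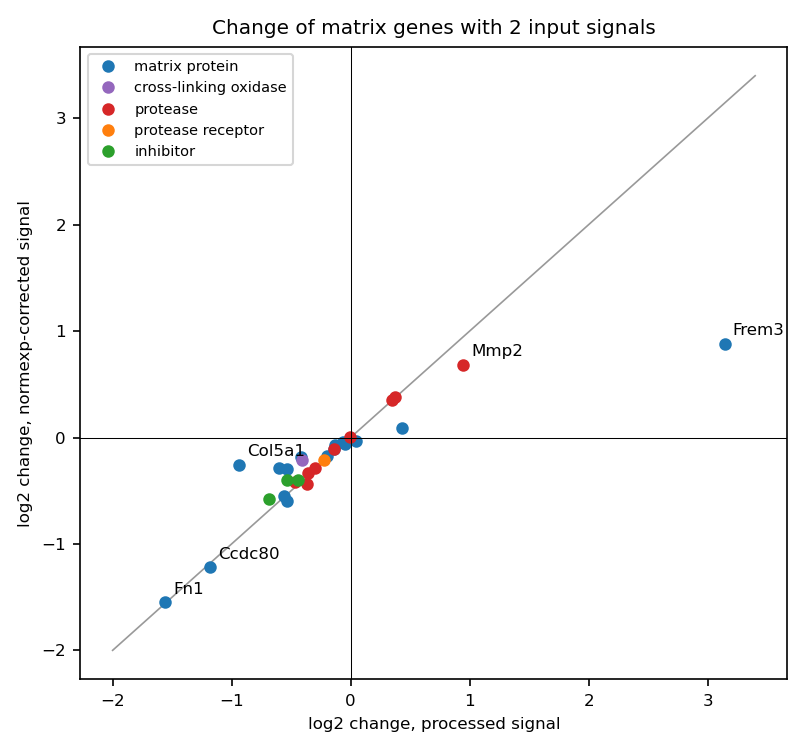
log2 change of the tested members on the processed signal (x axis) and with normexp on the median spot signal (y axis), coloured by class, with the line of equal values. Fn1 and Ccdc80 lie near the line. Frem3 moved from 3.14 to 0.88 and Col5a1 from -0.94 to -0.25.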

How the data were processed

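Per the labels, 150 ng of RNA per sample was labelled with Cy3. Spot intensity, background subtraction, detrending and the spot flags are those of Agilent Feature Extraction 10.7.1.1, per the file headers, with no scaling between arrays. The authors' deposited table of log2 values, whose making is not given in the sources used here, served as an alternative. It followed the scanner values centred on the median of each probe (r of 0.9999 over genes on every array), with column medians of 0.053, -0.031, -0.034 and 0.020. Columns of other samples numbered 0.

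Outlier spots (127 to 176 per array) were dropped and 0 were saturated. Processed signal was taken to log2, reduced by each array's 75th percentile over gene spots, and averaged per probe. Probes had to be well above background on every array of 1 genotype, and a gene took the highest such probe by mean, or, where there was none, the highest of all for display. Genotypes were compared with limma 3.58.1 in R 4.3.3 (lmFit, eBayes), with Benjamini-Hochberg adjustment over 17973 genes and a threshold of 0.05. Scanner files held no mean signal, so normexp (offset 50) used the median signal. Of 39429 probes 26055 received 1 symbol through RefSeq (GRCm38.p6, used for names; the arrays are annotated on mm9), and the others are counted by target. Python 3.11.15 was used for tables and figures. The members and lists were chosen with earlier results of these data known.

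Values on each array are given for members that passed, the 3 with the largest change and the brightest in each role, and those with a bound. Thbs1, Ecm1, Mmp12, Mmp14, Mmp25, Fcgr1, Ngp, Mpo, Mcpt8, Hdc and the genes named without array values were chosen outside that rule, once values were known. In simulated arrays (200 changed genes among 17973, 5 runs), the procedure found 2.8% of genes with a log2 change of 0.5, 69.6% with 1 and 93.6% with 2. Of its calls 6.52% were false. The simulated noise was drawn from the fitted limma prior, with no dependence on signal level and none between arrays. These rates hold for that model and are not error rates of the real arrays. The alternatives numbered 14.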

Additional observations from a re-analysis of the deposited data

How the results depend on the processing

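Over all genes limma called 342, of which 189 were higher and 153 lower. Normexp gave 888 (423 and 465, or 47.6% higher against 55.3%) with 8 members lower and 1 higher, and the prior with trend and robust fitting gave 1553 (690 and 863, or 44.4% higher) with 9 lower and 2 higher. No filter, no variance prior and the replicate block each gave 0 calls and 0 members, while 3657, 3136 and 3673 genes had an unadjusted p under 0.05. Leaving out 1 array gave 0 to 1 calls (0 to 1 higher, 0 to 0 lower), 0 to 0 members lower, and 2962 to 3514 genes below an unadjusted p of 0.05. The lone array of a genotype was there assumed to vary like the other genotype. In the other 5 alternatives (the authors' table, quantile and median scaling, the filter on all 4 arrays and the mean of probes) limma called 306 to 472 genes, and Fn1 and Ccdc80 passed in each.

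The shared replicate numbers do not pair the arrays by the labels. Deviations from the genotype means correlated at -0.0472 between arrays of the same number, and the replicate block gave the 0 calls above (adjusted p = 0.0858 in limma for Fn1 and 0.101 for Ccdc80). The median of matrix proteins (main value -0.31) was -0.42 with the filter on all 4 arrays, -0.48 with the mean of probes, -0.21 with no filter and -0.18 with normexp, and -0.31 to -0.11 without 1 array. That of proteases (-0.14) was -0.26 to -0.012 without 1 array. That of inhibitors (-0.54) was -0.40 with normexp.

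Of the 30 tested members 24 kept their direction under every alternative that gave a value, and 6 turned. Without 1 array Sparc ran from -1.43 to 0.23, Spp1 from -0.24 to 0.12, Dcn from -0.0066 to 0.87, Bgn from -0.17 to 0.075 and Adamts10 from -0.11 to 0.11. Sparc was 0.23 without Rbpj-deficient replicate 1, Spp1 0.12 without control replicate 1 and Dcn -0.0066 without Rbpj-deficient replicate 2. Bgn was 0.075 without control replicate 1 and 0.03 without Rbpj-deficient replicate 1. Lama5 (0.04) was -0.029 with normexp and -0.19 without control replicate 2. Adamts10 was 0.0036 with the authors' table, 0.0012 with normexp, 0.11 without control replicate 2 and 0.09 without Rbpj-deficient replicate 1. The cause of these differences was not tested, apart from the fewer arrays or wider set of genes that the alternative itself brings. Signal over background limits the 20 members outside the test, for which no change can be read.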
